A study of Mus musculus with 12 samples.

Results

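The hypoxia response and glycolysis genes described here are a list of 37 named genes. It holds 6 factors and sensors of the hypoxia-inducible factor (HIF) pathway, 16 glycolytic enzymes, 3 regulators of glycolysis and 12 further HIF target genes. Members are listed by gene symbol, and all 37 were found among the 49315 genes of the count files. All 37 also passed the filter on low counts, which left 16637 genes to test. RNA-seq was performed on CD31+ endothelial cells sorted from forebrains of E15.5 mouse embryos, depleted of CD140b+ mural cells, CD45+ leukocytes and dead cells, with 1 embryo per library. WT embryos (4 embryos) were compared with Gpr124ΔC/ΔC embryos (4 embryos), in which a V5 tag and a stop codon after the last transmembrane segment remove the intracellular domain of GPR124, and with Gpr124-/- embryos (4 embryos), which are homozygous for a lacZ knockout allele. The labels name no treatment in any group. Both alleles act in every cell of the embryo and not only in endothelium, and the truncated ΔC protein was described in the study as poorly expressed, so the ΔC allele is not a pure deletion of the intracellular domain. The comparisons ask how loss of GPR124, or of its intracellular domain, changed the transcripts of brain endothelial cells.

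HIF factors are pairs of an oxygen-regulated alpha subunit, such as the products of Hif1a and Epas1, and the stable partner encoded by Arnt. In oxygen, prolyl hydroxylases encoded by the Egln genes mark the alpha subunits for VHL-dependent degradation, and in low oxygen the pairs bind short DNA elements and raise transcription of glycolytic enzymes, of Egln3 itself and of genes for mitophagy, collagen hydroxylation and pH control. Endothelial cells are known to draw much of their ATP from glycolysis, and the alpha subunits are regulated mainly as proteins, which RNA-seq does not measure.

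The short elements are built on the letters ACGTG or GCGTG, read on either strand. RefSeq promoter windows (build GRCm38.p6) of 250 bases before to 50 bases after each annotated start were held for 33 of the 37 members. No window was at hand for Epas1, Bhlhe40, Ndrg1 and Bnip3l. In the 250 bases before the start, ACGTG was present in at least 1 window of 18 of the 33 members (54.5%), against 18.5% of all 27025 genes with a window. Either set of letters was present in 29 of 33 members (87.9%) and in 41.5% of all genes. The E-box CACGTG, which holds ACGTG on both strands and is bound by many other factors, was present in 5 of 33 members (15.2%) and in 6.86% of all genes. Among members that were higher in Gpr124-/- than in WT, ACGTG was present in 10 of the 15 with a window, and among those that did not pass the test in 8 of 17. GCGTG went the other way, with 8 of 15 and 12 of 17. Either set of letters was present in 14 of 15 and 14 of 17. These matches describe letters and not bound sites, and the windows were not matched for base composition. The stretches shown are the 250 bases before a RefSeq start. They cover members that passed with a log2 fold change beyond 1 in Gpr124-/- against WT, with Ldha and Pgk1 added by choice. Of the former, Ndrg1 had no window, and Car9 and Pfkfb4 were left out because annotated transcripts cover part of their stretches. ACGTG is in every stretch shown, but was absent before the start of the higher members Pfkfb4, Pdk1, Gapdh, Tpi1 and Hk1. All stretches have the letters ACGTG and GCGTG of either strand in capitals, so that CACGT and CACGC are the same letters on the opposite strand. They are written 5′ to 3′ in the direction of the gene, and where a gene had several windows the one with most ACGTG is shown.
Egln3 (chr12:54203875-54204124, minus strand): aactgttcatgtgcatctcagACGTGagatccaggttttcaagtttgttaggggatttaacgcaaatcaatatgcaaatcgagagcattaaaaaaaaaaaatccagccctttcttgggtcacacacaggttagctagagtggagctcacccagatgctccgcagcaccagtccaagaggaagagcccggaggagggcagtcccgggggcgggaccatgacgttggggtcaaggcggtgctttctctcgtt
P4ha2 (chr11:54100674-54100923, plus strand): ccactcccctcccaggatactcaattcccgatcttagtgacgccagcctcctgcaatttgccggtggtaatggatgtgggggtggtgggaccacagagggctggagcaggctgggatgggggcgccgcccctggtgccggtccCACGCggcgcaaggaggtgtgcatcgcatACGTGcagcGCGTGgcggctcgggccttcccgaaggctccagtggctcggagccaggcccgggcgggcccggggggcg
Bnip3 (chr7:138909507-138909756, minus strand): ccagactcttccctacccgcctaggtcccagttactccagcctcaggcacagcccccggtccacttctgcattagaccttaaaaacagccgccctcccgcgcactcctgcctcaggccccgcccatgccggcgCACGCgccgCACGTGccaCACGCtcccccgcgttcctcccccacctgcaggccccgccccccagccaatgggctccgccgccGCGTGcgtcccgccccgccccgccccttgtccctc
Hk2 (chr6:82774455-82774704, minus strand): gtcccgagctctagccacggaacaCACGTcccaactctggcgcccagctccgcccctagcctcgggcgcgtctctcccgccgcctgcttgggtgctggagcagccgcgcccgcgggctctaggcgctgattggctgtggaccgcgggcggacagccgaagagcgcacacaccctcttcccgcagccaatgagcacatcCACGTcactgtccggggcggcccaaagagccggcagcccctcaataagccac
Ldha (chr7:46845554-46845803, plus strand): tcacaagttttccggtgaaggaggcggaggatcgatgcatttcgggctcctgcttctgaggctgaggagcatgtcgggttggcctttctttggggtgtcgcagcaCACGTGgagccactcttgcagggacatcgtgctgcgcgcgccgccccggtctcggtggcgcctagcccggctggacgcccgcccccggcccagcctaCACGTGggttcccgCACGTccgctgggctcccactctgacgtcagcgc
Pgk1 (chrX:106186850-106187099, plus strand): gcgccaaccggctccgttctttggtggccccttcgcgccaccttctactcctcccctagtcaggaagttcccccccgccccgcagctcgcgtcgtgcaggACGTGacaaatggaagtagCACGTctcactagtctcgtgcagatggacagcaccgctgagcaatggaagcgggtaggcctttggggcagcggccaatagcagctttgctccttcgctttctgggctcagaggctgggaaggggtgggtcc

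Egln3 and P4ha2 each held a single ACGTG before the start, whereas the Hk2 and Pgk1 stretches held 2. In Ldha, 5 matches were counted, because each of 2 CACGTG boxes counts on both strands. The Ldha and P4ha2 stretches lay inside the annotated span of their genes, which begins at a more distant start. The Bnip3 stretch overlapped the 5′ edge of its gene's span. In Bnip3 the ACGTG lay in a CACGTG box with 3 further GCGTG matches around it.

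Libraries held 13877572 to 22551163 counts. In the text, TPM denotes the length-scaled values deposited by the authors, a level per transcript length, and is given for the embryos in the order JE1, JE6, KE8 and LE6 (WT), JE3, JE4, LE2 and LE5 (Gpr124ΔC/ΔC) and KE4, ME1, ME4 and ME5 (Gpr124-/-). Log2 fold changes, standard errors (SE) and adjusted p-values come from edgeR's quasi-likelihood test on the counts, adjusted by Benjamini-Hochberg over all 16637 genes, and "passed" means an adjusted p under 0.05. Adgra2, the gene for GPR124, had 38.6 ± 10.4 TPM in WT, 43.4 ± 13.7 in Gpr124ΔC/ΔC and 4.86 ± 0.988 in Gpr124-/- (SD, n = 4 each). None of the 10 endothelial markers was at 0. Their sum was 13002 to 16839 TPM in WT, 8223 to 13575 in Gpr124ΔC/ΔC and 7334 to 8811 in Gpr124-/-, and in WT most of it was the barrier gene Cldn5, at 7613 to 10110 TPM in WT, 3531 to 6451 in Gpr124ΔC/ΔC and 1877 to 2721 in Gpr124-/-. In Gpr124-/- against WT, Pecam1 (log2 fold change 0.54, adjusted p = 0.00778, edgeR) and Cdh5 (0.74, adjusted p = 0.00169, edgeR) were higher, Cldn5, Tek and Erg were lower, and the other 5 did not pass. The RNA Gm23935 took 12.5% of all TPM in the WT embryo JE6 and 14.1% in the Gpr124ΔC/ΔC embryo JE3, against 1.22% to 3.04% elsewhere, which lowers the deposited TPM of all other genes in these 2 libraries. The first letter of the embryo names differed between groups: WT embryos carried J, K and L, Gpr124ΔC/ΔC embryos J and L, and Gpr124-/- embryos K and M. What the letter marks was not stated in the labels. No letter is shared by the mutants, so with the letter as a term of the model they are compared only by way of the WT embryos that share a letter with either.

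Gpr124-/- embryos had higher levels of many genes of glycolysis and of the HIF response than WT. Of the 37 members, 16 were higher and 2 were lower (adjusted p under 0.05, edgeR), that is 43.2% and 5.41% of the list. Over all genes tested, 10.5% were higher and 9.32% were lower. The median log2 fold change was 0.40 over the members and −0.01 over all genes. With the first letter of the embryo name in the model, these medians were 0.25 and 0.02. With a log2 fold change beyond 1 in either direction as well, 7 members passed (18.9%, against 9.88% of all genes): Egln3, P4ha2, Hk2, Ndrg1, Car9, Pfkfb4 and Bnip3. Of these, Hk2 met the filter on low counts only with the Gpr124-/- libraries in the fit. Counts scaled by library size (CPM) of the WT and Gpr124-/- embryos did not overlap for 19 members, against 22.9% of all genes. Among genes with a mean of at least 10 TPM over the 12 embryos, 14 of 31 members (45.2%) and 21.3% of all genes passed. With the first letter of the embryo name as a term of the model, 2 of the 37 members (5.41%) and 6.16% of all genes passed, so the higher share among members was not seen in that fit.

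Gpr124ΔC/ΔC embryos differed from WT in few members. Egln3 and Ndrg1 were higher and Bnip3l was lower, which are 2 and 1 of 37 members against 1.85% and 2.24% of all genes. Only Egln3 among the members was also beyond 1 on the log2 scale, where 1.92% of all genes were. CPM did not overlap for 7 members, against 11.3% of all genes. The median log2 fold change was −0.03 over the members and 0.01 over all genes. Both mutants were compared with the same 4 WT embryos, so these comparisons are not independent of each other.

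Between the mutants, 13 members were higher in Gpr124-/- than in Gpr124ΔC/ΔC, against 4.93% of all genes. None of the 37 members was lower (edgeR), against 3.89% of all genes. At an unadjusted p under 0.05 edgeR gave 17 higher and 0 lower members, and DESeq2 gave 14 higher and 0 lower members after adjustment. Egln3, Bnip3 and P4ha2 differed by more than 1 on the log2 scale, where 4.6% of all genes did, and CPM did not overlap for 14 members, against 13.9% of all genes. The plot of fold changes by role shows all 37 members.

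**Figure D1:**
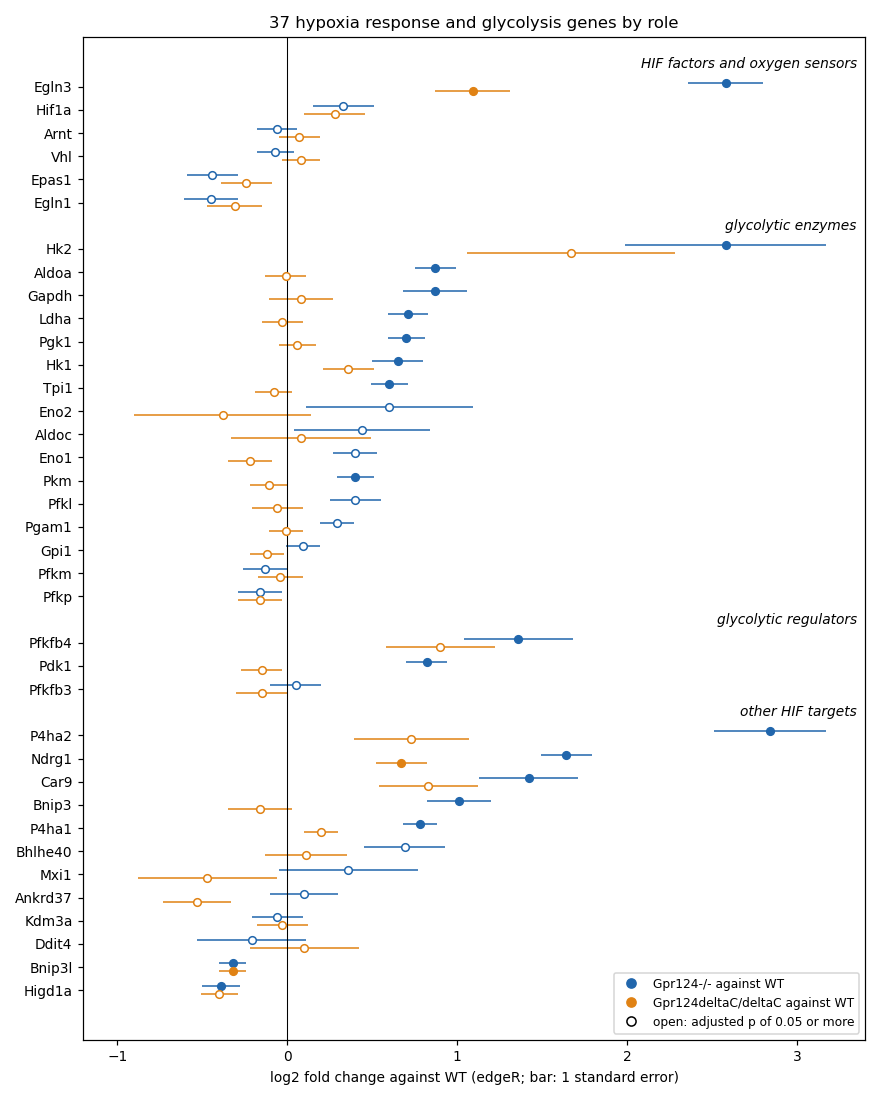
Log2 fold change against WT (x axis, edgeR, bars are 1 SE) of all 37 members, sorted within their role, in Gpr124-/- (blue) and in Gpr124ΔC/ΔC (orange, written deltaC/deltaC). Filled points passed at an adjusted p under 0.05: 18 of 37 in Gpr124-/- and 3 of 37 in Gpr124ΔC/ΔC.

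Other cells could contribute RNA, since in sorted bulk samples fewer cells of a type and less RNA per cell cannot be told apart. The 8 erythroid markers, mainly globins, summed to 7028 to 11771 TPM in WT, 5447 to 9896 in Gpr124ΔC/ΔC and 17817 to 54246 in Gpr124-/-, and 5 of them were higher in Gpr124-/- than in WT. All 4 platelet markers were higher in Gpr124-/-, with summed levels of 230 to 453 TPM in WT, 311 to 437 in Gpr124ΔC/ΔC and 494 to 1400 in Gpr124-/-. In both lists no marker was at 0 in every embryo of a group. Of the 7 proliferation markers 3 were higher in Gpr124-/- than in WT, and 1 of 6 neuronal markers was. The 6 pericyte markers summed to 19.5 to 40.7 TPM in WT, 10.4 to 22.5 in Gpr124ΔC/ΔC and 26.7 to 34.8 in Gpr124-/-. Among them Abcc9 was higher (log2 fold change 2.66, adjusted p = 0.000327, edgeR) and Rgs5 lower (−1.47, adjusted p = 0.0186, edgeR) in Gpr124-/- than in WT. Of 5 neural progenitor and 4 tested fibroblast markers, 1 each was lower, Slc1a3 and Pdgfra. Macrophage markers summed to at most 13.6 TPM in any embryo. The part of these cells in the member results was not tested.

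Of the 6 HIF factors and oxygen sensors, Egln3 was the 1 that passed in edgeR against WT, in both mutants. That is 16.7% of the 6, against 10.5% higher and 9.32% lower over all genes in Gpr124-/- and 1.85% and 2.24% in Gpr124ΔC/ΔC. Egln3 (chr12:54178981-54203860, minus strand, mm10) encodes a prolyl hydroxylase that is itself a strongly oxygen-responsive HIF target. Its TPM was 5.21, 4.76, 8.03 and 5.37 in WT, 12.7, 14.7, 15.8 and 8.97 in Gpr124ΔC/ΔC and 31.2, 41.4, 29.8 and 40.4 in Gpr124-/-. The 3 groups did not overlap and were ordered WT, Gpr124ΔC/ΔC, Gpr124-/-. The log2 fold change was 2.58 (SE 0.22, adjusted p = 4.56e-06, edgeR) in Gpr124-/- and 1.09 (SE 0.22, adjusted p = 0.0123, edgeR) in Gpr124ΔC/ΔC against WT, and 1.5 (SE 0.22, adjusted p = 0.00125, edgeR) between the mutants. Without the embryos JE3 and JE6, the value in Gpr124ΔC/ΔC was 0.98 and the adjusted p 0.0888 (edgeR), and over all alternatives the adjusted p ran from 0.000188 to 0.0888.

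Hif1a, the alpha subunit found in most cells, had 82.7, 63.5, 100 and 90.2 TPM in WT, 76.0, 104, 127 and 128 in Gpr124ΔC/ΔC and 121, 112, 135 and 67.9 in Gpr124-/-. Its log2 fold change was 0.33 (SE 0.18, adjusted p = 0.238, edgeR) in Gpr124-/- and 0.28 (SE 0.18, adjusted p = 0.556, edgeR) in Gpr124ΔC/ΔC, and all groups overlapped. Without ME5, the lowest Gpr124-/- embryo, the Gpr124-/- value was 0.50 and passed (adjusted p = 0.0164, edgeR), in a range of 0.0164 to 0.536 over the alternatives that leave out the label letter. Epas1, the alpha subunit typical of endothelium, had 198, 259, 198 and 192 TPM in WT, 208, 158, 192 and 203 in Gpr124ΔC/ΔC and 176, 157, 163 and 154 in Gpr124-/-. Every Gpr124-/- embryo lay below every WT embryo, but the log2 fold change of −0.44 (SE 0.15, adjusted p = 0.0588, edgeR) did not pass, nor did −0.24 in Gpr124ΔC/ΔC (SE 0.15, adjusted p = 0.57, edgeR). Without JE6, the highest WT embryo, these values were −0.27 and −0.07. The Gpr124-/- difference of Epas1 passed without JE3 (adjusted p = 0.0335, edgeR) and with only the 2 genotypes in the fit (0.0466), in a range of 0.0335 to 0.169. Epas1 made up 71.3 ± 6.25% of the summed TPM of both alpha subunits in WT and 60.5 ± 6.27% in Gpr124-/- (SD, n = 4). The mean TPM of Egln1, the main hydroxylase of HIF alpha subunits, was 31.5 in WT and 23.9 in Gpr124-/-, with a log2 fold change of −0.45 (SE 0.16, adjusted p = 0.0621, edgeR). Egln1 passed as lower in DESeq2 (adjusted p = 0.0489), with only the 2 genotypes in edgeR (0.0446), and in edgeR without LE6 (0.0377), JE3 (0.0346) or LE2 (0.0456), in a range of 0.0346 to 0.172. Egln3 was thus 15.7 ± 3.58% of the Egln1 and Egln3 TPM in WT, 32.7 ± 6.44% in Gpr124ΔC/ΔC and 59.7 ± 5.41% in Gpr124-/- (SD, n = 4). Arnt and Vhl had group means of 27.6 to 31.3 TPM and 45.8 to 52.6 TPM.

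Of the 16 glycolytic enzymes, 8 were higher in Gpr124-/- than in WT and none was lower (edgeR; 11 higher and 0 lower at an unadjusted p under 0.05, and 8 higher and 0 lower in DESeq2), against 10.5% higher and 9.32% lower over all genes. In Gpr124ΔC/ΔC, 0 of 16 passed in edgeR and in DESeq2, where edgeR called 1.85% of all genes higher and 2.24% lower, and 2 had an unadjusted p under 0.05 in each tool, which in edgeR were Hk1 and Hk2. Between the mutants 7 were higher in Gpr124-/- and 0 were lower (edgeR; 9 and 0 at an unadjusted p under 0.05, and 7 and 0 in DESeq2), against 4.93% and 3.89% of all genes. The 16 enzymes together made up 0.364% to 0.472% of all TPM in WT, 0.333% to 0.493% in Gpr124ΔC/ΔC and 0.584% to 0.795% in Gpr124-/-. Every Gpr124-/- embryo thus lay above every other embryo, and the lowest value was in JE3, a library with much Gm23935.

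Hexokinases phosphorylate glucose as it enters the pathway. Hk1 had 30.7, 31.4, 31.5 and 34.0 TPM in WT, 29.0, 43.2, 52.5 and 51.0 in Gpr124ΔC/ΔC and 41.3, 45.4, 54.9 and 64.4 in Gpr124-/-. Its log2 fold change was 0.65 (SE 0.15, adjusted p = 0.00918, edgeR) in Gpr124-/-, which did not pass in limma without a filter (adjusted p = 0.0535, in a range from 0.00183 without the letter term), and 0.36 (SE 0.15, adjusted p = 0.291, edgeR) in Gpr124ΔC/ΔC, where the groups overlapped. Hk2 (chr6:82725025-82774454, minus strand, mm10), the HIF-responsive isozyme, was the least abundant member, with 2 to 45 counts per library. Its TPM was 0.043, 0.102, 0.151 and 0.306 in WT, 0.245, 0.643, 0.899 and 0.288 in Gpr124ΔC/ΔC and 0.695, 1.41, 0.393 and 1.18 in Gpr124-/-. The log2 fold change was 2.58 in Gpr124-/- (SE 0.59, adjusted p = 0.00731, edgeR) and 1.67 in Gpr124ΔC/ΔC (SE 0.61, adjusted p = 0.193, edgeR). With only WT and Gpr124ΔC/ΔC in the fit, Hk2 did not meet the filter on low counts. Its place among the tested genes thus depended on the Gpr124-/- libraries, where its mean TPM was highest. With limma on log2(TPM + 1) without a filter the Gpr124-/- value was 0.71, since that pseudocount is larger than the levels in WT. Hk1 remained 97.0% to 99.9% of hexokinase TPM in all embryos.

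Aldolase A, triose phosphate isomerase and GAPDH act in the middle of the pathway. Aldoa had 396, 334, 421 and 434 TPM in WT, 332, 450, 439 and 452 in Gpr124ΔC/ΔC and 620, 746, 706 and 896 in Gpr124-/-. Gpr124-/- embryos lay above all others, and the log2 fold change was 0.87 (SE 0.12, adjusted p = 0.00019, edgeR) against WT and 0.88 (SE 0.12, adjusted p = 0.000925, edgeR) against Gpr124ΔC/ΔC. Tpi1 showed the same order of groups, with 296, 252, 298 and 307 TPM in WT, 231, 315, 310 and 301 in Gpr124ΔC/ΔC and 372, 421, 452 and 540 in Gpr124-/-. Its log2 fold change was 0.60 (SE 0.11, adjusted p = 0.00225, edgeR) against WT and 0.67 (SE 0.11, adjusted p = 0.00317, edgeR) against Gpr124ΔC/ΔC. For Gapdh, TPM was 616, 396, 764 and 478 in WT, 424, 836, 710 and 550 in Gpr124ΔC/ΔC and 1061, 946, 996 and 1217 in Gpr124-/-. WT and Gpr124ΔC/ΔC embryos were spread widely and overlapped each other, but no Gpr124-/- embryo overlapped them. The log2 fold change of Gapdh was 0.87 (SE 0.19, adjusted p = 0.0059, edgeR) against WT and 0.80 (SE 0.19, adjusted p = 0.0217, edgeR) against Gpr124ΔC/ΔC. The latter no longer passed without LE5 (adjusted p = 0.068, edgeR) or without ME5 (adjusted p = 0.0646, edgeR), in a range of 0.00233 to 0.12 over the alternatives that leave out the label letter.

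Phosphoglycerate kinase, enolase, pyruvate kinase and lactate dehydrogenase complete the conversion to lactate. Pgk1, on the X chromosome, had 157, 129, 164 and 158 TPM in WT, 141, 177, 179 and 172 in Gpr124ΔC/ΔC and 202, 242, 274 and 293 in Gpr124-/-. Its log2 fold change was 0.70 (SE 0.11, adjusted p = 0.000764, edgeR) against WT and 0.64 (SE 0.11, adjusted p = 0.00425, edgeR) against Gpr124ΔC/ΔC, with Gpr124-/- above all other embryos. Xist, also on the X chromosome, had 30.95 (ME5) to 73.91 TPM in JE6, LE6, JE3, JE4, LE5, ME1 and ME5. In the other embryos Xist was at most 0.0847 TPM, and a link with the Pgk1 levels was not tested. Eno1 had 468, 436, 477 and 564 TPM in WT, 323, 470, 490 and 490 in Gpr124ΔC/ΔC and 531, 606, 671 and 814 in Gpr124-/-. Gpr124-/- embryos overlapped WT in TPM but not Gpr124ΔC/ΔC. The log2 fold change of 0.40 against WT (SE 0.13, adjusted p = 0.0555, edgeR) missed the threshold and that of 0.62 against Gpr124ΔC/ΔC passed it (SE 0.13, adjusted p = 0.0133, edgeR). The latter did not pass in 3 of 4 limma fits on log2 TPM (adjusted p = 0.0574 to 0.111). The former passed in edgeR without KE4 (0.50, adjusted p = 0.0117) or JE3 (adjusted p = 0.044) and among genes with a mean of at least 50 counts (0.038), and was 0.27 without ME5, in a range of adjusted p of 0.0117 to 0.186. Pkm, with 772, 738, 847 and 928 TPM in WT, 611, 839, 898 and 883 in Gpr124ΔC/ΔC and 994, 964, 1138 and 1342 in Gpr124-/-, had the smallest log2 fold change of the 8 enzymes that passed. On the counts, its log2 fold change against WT was 0.40 (SE 0.11, adjusted p = 0.0268, edgeR), and that against Gpr124ΔC/ΔC was 0.51 (SE 0.11, adjusted p = 0.0155, edgeR). In the same 3 limma fits on log2 TPM neither passed (adjusted p = 0.0635 to 0.131 against WT and 0.0793 to 0.158 between the mutants). The difference of Pkm from WT did not pass without JE1 (adjusted p = 0.0815, edgeR), without JE6 (0.0622) or without ME4 (0.055), in a range of 0.0135 to 0.131 over the alternatives that leave out the label letter.

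Ldha (chr7:46841475-46855627, plus strand, mm10), which regenerates NAD+ by turning pyruvate into lactate, was the most abundant member. It had 1010, 779, 1034 and 1028 TPM in WT, 769, 1073, 1119 and 1041 in Gpr124ΔC/ΔC and 1341, 1581, 1644 and 1888 in Gpr124-/-. WT and Gpr124ΔC/ΔC embryos overlapped, and all Gpr124-/- embryos were above both. The log2 fold change was 0.71 (SE 0.12, adjusted p = 0.00078, edgeR) against WT and 0.74 (SE 0.12, adjusted p = 0.00214, edgeR) against Gpr124ΔC/ΔC. The remaining enzymes did not pass against WT in either mutant. These were Gpi1, Pfkl, Pfkm, Pfkp, Pgam1, Aldoc and Eno2 besides Eno1, and their adjusted p against WT in Gpr124-/- was 0.0605 for Pgam1 and 0.0893 for Pfkl (edgeR). Among the phosphofructokinase isozymes Pfkl was 71.6 ± 2.07% of the TPM in WT, 72.4 ± 1.74% in Gpr124ΔC/ΔC and 78.5 ± 1.62% in Gpr124-/- (SD, n = 4). Its level was 173 ± 25.5 TPM in WT and 233 ± 41.8 TPM in Gpr124-/- (SD, n = 4). The plot of shares of TPM shows these values by embryo. Aldoa and Eno1 were over 98% of their isozyme families in every embryo.

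**Figure D2:**
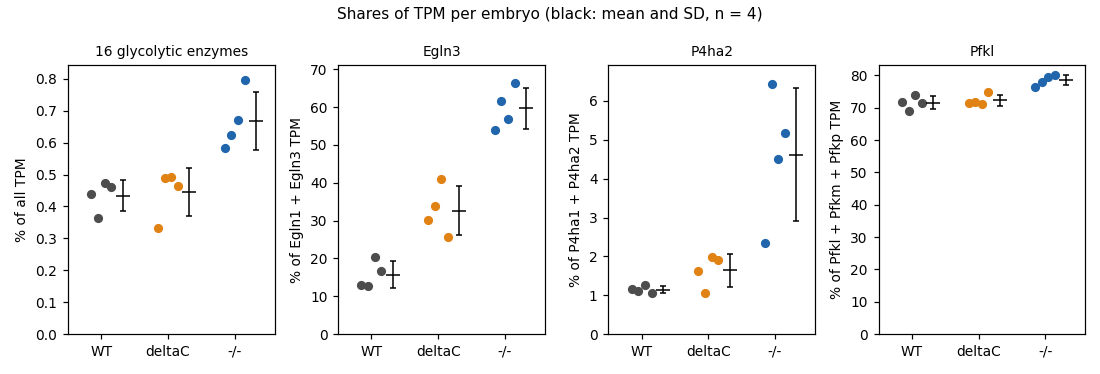
Share of TPM in each embryo (points) with the mean and SD (black, n = 4) in WT, Gpr124ΔC/ΔC (deltaC) and Gpr124-/- (-/-). From left to right, the 16 glycolytic enzymes as a share of all TPM, Egln3 of Egln1 and Egln3, P4ha2 of P4ha1 and P4ha2, and Pfkl of the phosphofructokinases. Gpr124-/- embryos lie above all others in every panel.

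Of the 3 glycolytic regulators, 2 were higher in Gpr124-/- than in WT, against 10.5% of all genes. Pfkfb4, a bifunctional enzyme that sets the level of an activator of phosphofructokinase, had 0.948, 0.690, 1.27 and 1.78 TPM in WT, 2.33, 1.44, 3.07 and 2.27 in Gpr124ΔC/ΔC and 1.88, 2.88, 3.88 and 3.56 in Gpr124-/-. WT and Gpr124-/- embryos were apart, while Gpr124ΔC/ΔC embryos overlapped both. With edgeR, the log2 fold change was 1.36 (SE 0.32, adjusted p = 0.008, edgeR) in Gpr124-/- and 0.90 (SE 0.32, adjusted p = 0.172, edgeR) in Gpr124ΔC/ΔC. Pdk1, whose kinase keeps pyruvate from entering the mitochondrial pyruvate dehydrogenase complex, had 10.03, 9.45, 11.7 and 10.3 TPM in WT, 8.88, 11.6, 8.93 and 9.99 in Gpr124ΔC/ΔC and 17.8, 20.5, 20.6 and 16.1 in Gpr124-/-. Its fitted log2 fold change was 0.82 (SE 0.12, adjusted p = 0.000335, edgeR) against WT and 0.96 (SE 0.12, adjusted p = 0.000526, edgeR) against Gpr124ΔC/ΔC, and Gpr124-/- lay above all other embryos. Pfkfb3, the regulator most studied in endothelium, had group means of 18.1 to 20.01 TPM.

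Of the 12 other HIF targets, 5 were higher (41.7%) and 2 were lower (16.7%) in Gpr124-/- than in WT, against 10.5% and 9.32% of all genes. P4ha2 (chr11:54100095-54131665, plus strand, mm10), a catalytic subunit of collagen prolyl hydroxylase, had the largest log2 fold change of the 37 members in Gpr124-/- in the edgeR fit. Its TPM was 0.535, 0.367, 0.604 and 0.487 in WT, 0.704, 0.547, 1.15 and 1.13 in Gpr124ΔC/ΔC and 1.75, 4.72, 4.03 and 4.07 in Gpr124-/-, so the Gpr124-/- embryos lay above all others. The fitted log2 fold change was 2.84 (SE 0.33, adjusted p = 5.85e-05, edgeR) against WT, 0.73 (SE 0.34, adjusted p = 0.354, edgeR) in Gpr124ΔC/ΔC and 2.10 (SE 0.32, adjusted p = 0.00193, edgeR) between the mutants. Against WT, P4ha2 stood at 1.58 in limma on log2(TPM + 1), where the value of Egln3 was larger, and at 1.48 in edgeR with the letter term, where it did not pass (adjusted p = 0.0823, against 3.45e-14 to 0.00129 in the other alternatives). The isoform P4ha1, at much higher level, had 45.7, 32.7, 47.1 and 45.9 TPM in WT, 42.6, 51.5, 56.3 and 58.1 in Gpr124ΔC/ΔC and 72.6, 68.5, 85.3 and 74.6 in Gpr124-/-. The Gpr124-/- embryos lay above all others. In the count model the log2 fold change was 0.78 (SE 0.10, adjusted p = 9.2e-05, edgeR) against WT, and 0.57 (SE 0.10, adjusted p = 0.00317, edgeR) against Gpr124ΔC/ΔC, where limma on log2(TPM + 0.1) and limma without a filter did not call it (adjusted p = 0.0516 and 0.0735, in a range from 6.38e-06 without the letter term). P4ha2 was 1.15 ± 0.0901% of the TPM of both subunits in WT, 1.65 ± 0.427% in Gpr124ΔC/ΔC and 4.62 ± 1.71% in Gpr124-/- (SD, n = 4).

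Ndrg1 (chr15:66929321-66969640, minus strand, mm10), a gene induced by low oxygen and metals, had 8.22, 6.58, 12.5 and 9.02 TPM in WT, 11.98, 15.9, 17.7 and 15.3 in Gpr124ΔC/ΔC and 30.9, 24.7, 27.6 and 32.1 in Gpr124-/-. JE3 lay just below KE8 and the other Gpr124ΔC/ΔC embryos above WT. With edgeR, the log2 fold change was 1.64 (SE 0.15, adjusted p = 8.27e-06, edgeR) in Gpr124-/-, 0.67 (SE 0.15, adjusted p = 0.0239, edgeR) in Gpr124ΔC/ΔC and 0.97 (SE 0.15, adjusted p = 0.00196, edgeR) between the mutants. In Gpr124ΔC/ΔC it did not pass without JE1, JE6, LE6, JE4, LE2 or LE5 (adjusted p = 0.051 to 0.0891, edgeR), in a range of 0.00117 to 0.103 over the alternatives. Nor did it pass without JE3 and JE6 together, or in limma on log2(TPM + 1), with or without a filter, and on log2(TPM + 0.1). Car9, a membrane carbonic anhydrase, had 1.89, 0.796, 0.850 and 1.39 TPM in WT, 1.98, 2.78, 2.33 and 2.24 in Gpr124ΔC/ΔC and 2.55, 3.42, 4.50 and 3.13 in Gpr124-/-. Every WT embryo lay below every mutant embryo. The fitted log2 fold change was 1.42 (SE 0.29, adjusted p = 0.00358, edgeR) in Gpr124-/- and 0.83 (SE 0.29, adjusted p = 0.176, edgeR) in Gpr124ΔC/ΔC. Bnip3, a mitophagy receptor, had 20.2, 16.3, 24.7 and 23.9 TPM in WT, 17.1, 16.1, 23.8 and 23.6 in Gpr124ΔC/ΔC and 33.4, 58.2, 40.8 and 42.0 in Gpr124-/-. The Gpr124-/- embryos lay above all others, and the log2 fold change was 1.01 (SE 0.19, adjusted p = 0.00207, edgeR) against WT and 1.17 (SE 0.19, adjusted p = 0.00271, edgeR) against Gpr124ΔC/ΔC.

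Bnip3l, a further mitophagy receptor, and Higd1a, a mitochondrial protein induced in hypoxia, were lower. Bnip3l had 218, 187, 248 and 245 TPM in WT, 161, 198, 187 and 215 in Gpr124ΔC/ΔC and 194, 191, 182 and 170 in Gpr124-/-. In TPM the mutants overlapped WT through JE6, and in CPM they did not. For this gene the log2 fold change was −0.32 (SE 0.08) in both mutants, with an adjusted p of 0.0134 (edgeR) in Gpr124-/- and 0.0478 (edgeR) in Gpr124ΔC/ΔC. In Gpr124-/- it did not pass in 3 of 4 limma fits on log2 TPM (−0.28, adjusted p = 0.145 to 0.198) or in edgeR with the letter term (adjusted p = 0.274). In Gpr124ΔC/ΔC it did not pass in 9 of the 12 fits that each left out 1 embryo, which were those without JE1, KE8, LE6, JE3, JE4, LE2, KE4, ME1 or ME4 (adjusted p = 0.0523 to 0.151, edgeR), nor in 9 of 11 other alternatives. Higd1a had 112, 88.5, 96.7 and 100 TPM in WT, 79.2, 79.7, 73.2 and 85.1 in Gpr124ΔC/ΔC and 77.0, 82.9, 72.5 and 78.5 in Gpr124-/-. Every mutant embryo lay below every WT embryo. In the count model the log2 fold change was −0.39 (SE 0.11, adjusted p = 0.0186, edgeR) in Gpr124-/- and −0.40 (SE 0.11, adjusted p = 0.0558, edgeR) in Gpr124ΔC/ΔC, and in Gpr124-/- it did not pass without JE1 (adjusted p = 0.0626, edgeR) or without ME4 (0.0619), in a range of 0.00881 to 0.0626 over the alternatives that leave out the label letter. In Gpr124ΔC/ΔC, Higd1a passed in DESeq2 (adjusted p = 0.019) and without JE3 (adjusted p = 0.0296, edgeR), in a range of 0.019 to 0.182. The 5 other targets, Ankrd37, Mxi1, Kdm3a, Ddit4 and Bhlhe40, did not pass in edgeR. Bhlhe40, a transcriptional repressor, had a log2 fold change of 0.69 in Gpr124-/- (SE 0.24, adjusted p = 0.0642, edgeR), and Ankrd37 had one of −0.53 in Gpr124ΔC/ΔC (SE 0.20, adjusted p = 0.209, edgeR) and of 0.63 between the mutants (SE 0.20, adjusted p = 0.0726, edgeR). Bhlhe40 passed in DESeq2 (adjusted p = 0.0402) and in edgeR without KE8 (0.98, adjusted p = 0.00526), in a range of 0.00526 to 0.167. The difference of Ankrd37 between the mutants passed in DESeq2 (adjusted p = 0.0336) and in edgeR without JE4 (adjusted p = 0.0441), in a range of 0.0336 to 0.232.

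**Figure D3:**
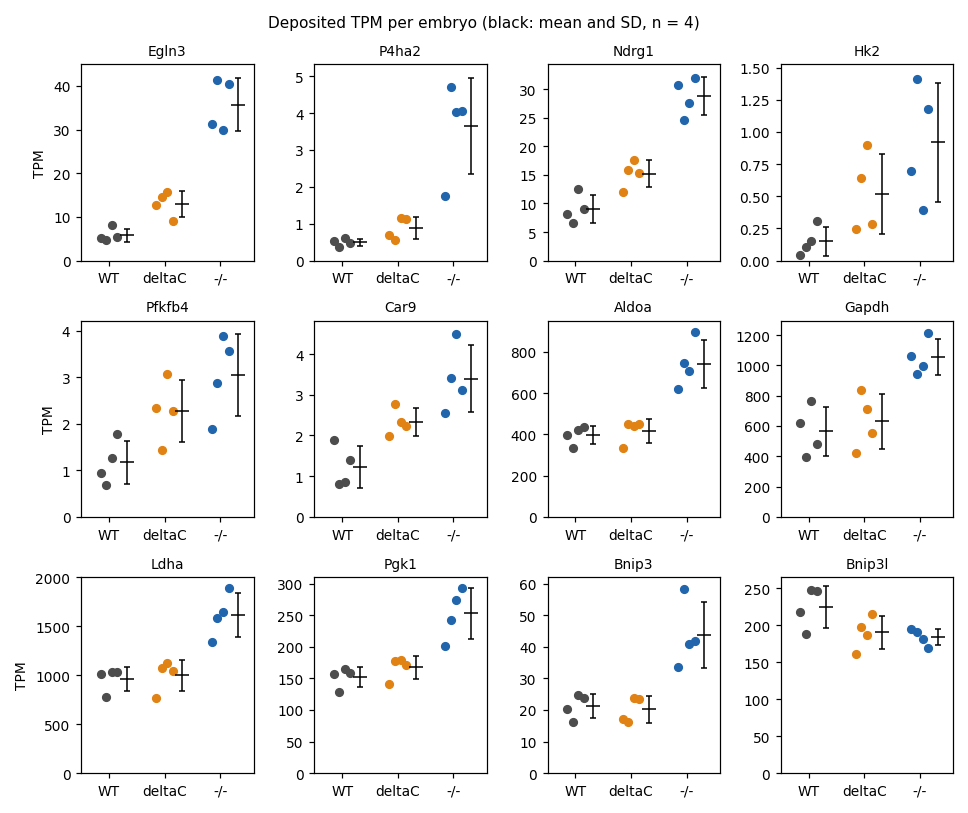
Deposited TPM per embryo (y axis, starting at 0; points) with the mean and SD (black, n = 4) of 12 members in WT, Gpr124ΔC/ΔC (deltaC) and Gpr124-/- (-/-). Egln3 is ordered WT, Gpr124ΔC/ΔC and Gpr124-/- without overlap, Aldoa, Ldha and Bnip3 are apart only in Gpr124-/-, and Bnip3l is lower in both mutants.

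For TPM of single members an exact two-sided permutation test over all 70 orders of 4 against 4 embryos cannot go below p = 0.0286. It gave this smallest value for 20 of the 37 members in Gpr124-/- against WT, for 3 in Gpr124ΔC/ΔC against WT and for 13 between the mutants, and these are the members whose TPM did not overlap. Over all genes tested, TPM did not overlap for 20.3%, 8.85% and 11.5%, so 3 of 37 members (8.11%) is near the share of all genes. The smallest p became 0.0881 after adjustment over the 111 tests. The letter of the embryo name bore on the counts. Within the letter K, where 1 Gpr124-/- and 1 WT embryo were at hand, the log2 ratios of CPM ran from 0.19 to 2.15 (median 0.52) over the 16 members that were higher and from −0.40 to −0.37 over the 2 that were lower. Their sign is no check, because CPM of all 18 did not overlap between the genotypes and any pair of these embryos gives the same sign. With the letter as a term of the edgeR model, the Gpr124-/- against WT estimate rests on these 2 embryos, and 2 members passed, Egln3 (1.91, adjusted p = 0.00712, edgeR) and Ndrg1 (1.26, adjusted p = 0.00441, edgeR), while the other 16 did not. Between the mutants 0 of 37 members passed in that fit (edgeR, 2 at an unadjusted p under 0.05), against 1.27% of all genes. In the other fits, adjusted p lay between 2.67e-27 and 7.23e-05 for Egln3 and between 3.06e-21 and 0.000168 for Ndrg1.

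Genes of the same pathways outside the 37 members did not move in 1 direction. Of 35 other HIF targets, 5 were higher (14.3%) and 6 were lower (17.1%) in Gpr124-/- than in WT, against 10.5% and 9.32% of all genes. Vegfa, the angiogenic growth factor, had 1.72 to 3.53 TPM in WT, 1.96 to 3.88 in Gpr124ΔC/ΔC and 8.92 to 19.9 in Gpr124-/-. On the counts, its log2 fold change was 2.44 (SE 0.36, adjusted p = 0.000376, edgeR) in Gpr124-/- and 0.29 (SE 0.36, adjusted p = 0.862, edgeR) in Gpr124ΔC/ΔC. Without JE6 the Gpr124ΔC/ΔC value was 0.61 (adjusted p = 0.538, edgeR). In contrast Slc2a1, the glucose transporter of the blood-brain barrier, fell from 3477 to 4239 TPM in WT to 1426 to 2114 TPM in Gpr124-/-. Its fitted log2 fold change was −1.15 (SE 0.13, adjusted p = 5.37e-05, edgeR) there and −0.40 (SE 0.13, adjusted p = 0.144, edgeR) in Gpr124ΔC/ΔC. Angptl4, a secreted inhibitor of lipoprotein lipase, had log2 fold changes of −3.73 (SE 0.22, adjusted p = 2.89e-07, edgeR) in Gpr124-/- and −1.65 (SE 0.20, adjusted p = 0.00044, edgeR) in Gpr124ΔC/ΔC. The transferrin receptor Tfrc had −3.95 (SE 0.36, adjusted p = 7.62e-06, edgeR) and −1.79 (SE 0.33, adjusted p = 0.00726, edgeR), the latter not passing in limma on log2(TPM + 1) without a filter (adjusted p = 0.0581, in a range from 2.42e-06). Both are known HIF targets and were lower, whereas most members that passed were higher.

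Among 25 tested other genes of glycolysis and pyruvate use, 3 were higher (12%) and 6 were lower (24%) in Gpr124-/- than in WT, against 10.5% and 9.32% of all genes, so the share that was higher is near that of all genes. The lactate exporter Slc16a3 rose from 1.14 to 1.45 TPM in WT to 2.84 to 3.81 in Gpr124ΔC/ΔC and 9.82 to 23.3 in Gpr124-/-. In Gpr124ΔC/ΔC the difference did not pass without JE3 and JE6 (adjusted p = 0.0592, edgeR), in a range of 0.0003 to 0.0967 over the alternatives that leave out the label letter. With edgeR, the log2 fold change was 3.60 (SE 0.26, adjusted p = 1.31e-06, edgeR) in Gpr124-/- and 1.27 (SE 0.25, adjusted p = 0.0115, edgeR) in Gpr124ΔC/ΔC. The monocarboxylate carrier Slc16a1 fell, from 34.1 to 50.2 TPM in WT to 10.2 to 23.5 in Gpr124ΔC/ΔC and 11.5 to 20.6 in Gpr124-/-, with log2 fold changes of −1.21 (SE 0.20, adjusted p = 0.00413, edgeR) and −1.38 (SE 0.21, adjusted p = 0.000384, edgeR). The Gpr124ΔC/ΔC difference of Slc16a1 did not pass in limma on log2(TPM + 1) without a filter (adjusted p = 0.0674, in a range from 1.51e-06). Pdk4, a kinase of the same family as Pdk1, was lower in both mutants, with log2 fold changes of −3.18 (SE 0.30, adjusted p = 8.85e-06, edgeR) in Gpr124-/- and −1.48 (SE 0.27, adjusted p = 0.00741, edgeR) in Gpr124ΔC/ΔC. Ldhb, the lactate dehydrogenase subunit favoured in oxidative tissues, was lower in Gpr124-/- (log2 fold change −0.92, SE 0.14, adjusted p = 0.000397, edgeR), but with the label letter as a term the estimate was −0.53 and did not pass (adjusted p = 0.294, edgeR). Its adjusted p over the other alternatives was 1.46e-08 to 0.00284. The plot of other pathway genes shows these values.

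**Figure D4:**
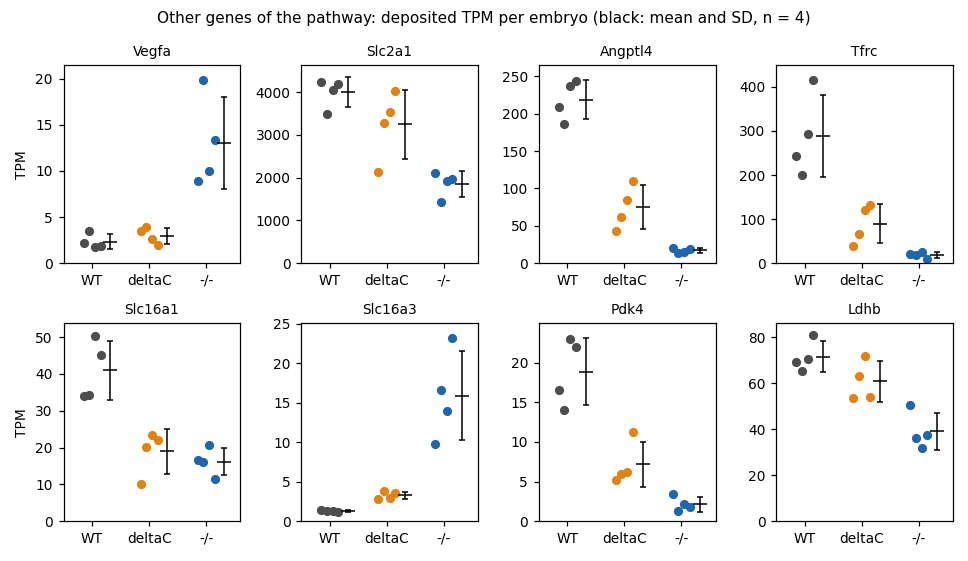
Deposited TPM per embryo (y axis, starting at 0; points) with the mean and SD (black, n = 4) of 8 other genes of the HIF and glucose pathways in WT, Gpr124ΔC/ΔC (deltaC) and Gpr124-/- (-/-). Vegfa and Slc16a3 are higher in Gpr124-/-, and Slc2a1, Angptl4, Tfrc, Slc16a1, Pdk4 and Ldhb are lower.

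Of 18 other regulators of the HIF pathway, 2 were higher in Gpr124-/- than in WT, a share of 11.1% that is near the 10.5% of all genes. Cited4, a coactivator-binding protein, had 1.81 to 6.47 TPM in WT and 59.6, 33.9 and 56.3 in the M embryos of Gpr124-/-, but 6.65 in KE4, which lay close to WT. For this gene the log2 fold change was 3.18 (SE 0.77, adjusted p = 0.0101, edgeR), but 1.82 with the label letter as a term, which did not pass (adjusted p = 0.196, edgeR), in a range of 0.00216 to 0.0401 over the other alternatives. Hsp90ab1, a chaperone, had one of 0.26 (SE 0.08, adjusted p = 0.0375, edgeR), which did not pass in 16 of 23 alternatives, those without JE1, JE6, LE6, LE2, LE5, KE4, ME1 or ME5 among them (highest adjusted p without the letter term 0.177). Of 8 pentose phosphate genes, H6pd rose (log2 fold change 1.88, SE 0.34, adjusted p = 0.00159, edgeR) and Rpe fell by 0.43 (SE 0.13, adjusted p = 0.0373, edgeR). These shares of 12.5% higher and 12.5% lower are near the 10.5% and 9.32% of all genes. Rpe did not pass in 14 of 23 alternatives, those without JE1, KE8, LE6, JE4, ME1, ME4 or ME5 among them (highest adjusted p without the letter term 0.281).

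Reads of several members could be shared with copies or overlapping genes, since the strand setting of the count is not given in the sources used here. Of all 50-base stretches of its annotated transcripts, Pgk1 shares 53.9% with other annotated genes, mainly the pseudogene Pgk1-rs7, which was listed at a mean of 0.977 TPM. Bnip3 shares 47.2%, Pgam1 36.2%, Eno1 26.0%, Pkm 25.8%, Gapdh 25.1%, Higd1a 24.4% (mainly the antisense gene Gm47112, at a mean of 0.396 TPM) and Bnip3l 20.8%. The counts of these members are uncertain to the extent that such reads were split. The copy Eno1b was at 7.91 TPM on average and the pseudogene Bnip3l-ps at 32.3 TPM. Coding genes on the opposite strand overlap Aldoa (Fam57b, mean 2.75 TPM), Tpi1 (Spsb2, 11.8 TPM) and Gapdh (Iffo1, 9.20 TPM), which all passed, and also Ankrd37, Pfkm, Pfkp and Mxi1.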

How the data were processed

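Poly(A) RNA-seq libraries of 12 embryos (SMART-Seq V4 cDNA, paired-end reads) were analysed, with the embryo as the replicate. The deposited counts per gene, and the TPM that the authors made from them, were used as given; the submitters' processing notes name bcl2fastq 2.17 and mm10, and the aligner, the counter and its strand setting are not given in the sources used here. Symbols were matched through GENCODE for 49056 of 49315 gene identifiers. Genes were kept by edgeR's filterByExpr (minimum count 10, minimum total 15), counts were scaled by TMM (factors 0.946 to 1.04), and all 12 libraries were fitted in 1 quasi-likelihood model with genotype as the only term (R 4.3.3, edgeR 4.0.16), which was first tested on simulated data. Alternatives used DESeq2 1.42.0 and limma 3.58.1, other filters and factors, the label letter as a term, and each library left out. The members, the other gene lists and the tests were chosen with earlier results of these data known. Members that passed in any comparison, Hif1a, Epas1 and the most and least abundant members are given per embryo, and up to 4 genes are named per other list, those with the lowest p in Gpr124-/- against WT, with Vegfa and Slc2a1 in any case. The 50-base stretches were counted over GENCODE transcripts, and promoter stretches come from RefSeq. In the main fit, p-values weigh a difference between genotypes against the spread of embryos within a genotype. Letter and genotype are not separated there. Precision is limited by 4 embryos per genotype.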

Additional observations from a re-analysis of the deposited data

Results flagged for a closer look

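In 9 of 111 sets of 4 embryos (37 members in 3 genotypes), 1 embryo's TPM stood apart from the other three by Dixon's criterion, where chance gives about 1 in 20. In the WT embryo JE6, Epas1 was high at 259.3 TPM, Ldha was low at 779.1 TPM and P4ha1 was low at 32.72 TPM. In the Gpr124ΔC/ΔC embryo JE3, Aldoa (332 TPM), Tpi1 (231 TPM) and Eno1 (323.3 TPM) were low. JE6 and JE3 are the libraries in which Gm23935 took 12.5% and 14.1% of all TPM, and its part in these values was not tested. In Gpr124-/-, Arnt was high in ME4 (32.61 TPM), Pfkm was low in ME1 (18.51 TPM) and Ankrd37 was high in KE4 (212.6 TPM).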

How the results depend on the processing

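In Gpr124-/- against WT, 18 members passed, and 16 to 22 did when 1 embryo was left out, against 15.6% to 20.9% of all genes in those fits, but 2 (5.41%) with the label letter as a term (8 at an unadjusted p under 0.05), against 6.16% of all genes, an estimate that rests on the 2 embryos of letter K. In Gpr124ΔC/ΔC against WT, 3 passed, and 1 to 3 did when 1 embryo was left out (1 without JE1, LE6, JE4 or LE2), against 2.82% to 4.89% of all genes. With the label letter as a term 2 passed there (5.41%), near the 5.9% of all genes. These were Egln3 (1.28, adjusted p = 0.00187, edgeR) and Ndrg1 (0.82, adjusted p = 0.00117, edgeR). Limma on log2(TPM + 1), on log2(TPM + 0.1) and on log2(TPM + 1) without a filter each gave 1, against 2.79%, 2.61% and 1.12% of all genes, and edgeR without JE3 and JE6, chosen after seeing the data, gave 0 (8 at an unadjusted p under 0.05), against 2.76% of all genes. Between the mutants 13 passed, and 12 to 15 did when 1 embryo was left out, against 5.19% to 11.2% of all genes, but 0 with the letter term in edgeR (2 at an unadjusted p under 0.05), where the mutants are linked only through WT embryos. The cause of these changes was not tested. Of 778 refits of the 34 differences that passed, 695 passed again, 83 did not and none changed sign, and 32 of the 34 missed the threshold in at least 1 refit, mostly that with the letter term. Among the 77 differences of members that did not pass, 120 of 1750 refits changed sign, in 32 of the 77, and 23 passed. The letter term is the blocked fit that the labels allow, and the number after the letter was not used to pair embryos.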
